A study of Drosophila melanogaster with 12 samples.

Results

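Input mRNA of ovaries with germline aramis RNAi was compared with input mRNA of ovaries with germline bam RNAi. The comparison took the 4 libraries, of 12 in the series, whose labels give these genotypes and the input fraction, 2 libraries per genotype. Both genotypes carried UAS-Dicer2 and the NosGAL4 driver, which is active in germ cells, so the hairpin was expressed in the germline while the somatic cells of the same ovaries entered the libraries untargeted. The flies were dissected 1 to 3 days after eclosion. For the input, 20% of each polysome lysate was set aside before fractionation and its RNA was extracted with TRIzol, poly(A)-selected and made into directional libraries. The third genotype of the series, germline UAS-tkv, and all polysome libraries entered the fit through the estimate of the spread, and some of their levels are set beside the results. The labels do not say whether the 2 libraries of a genotype came from separate crosses, so every p-value given here measures only the spread between these libraries.

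In the Drosophila ovary, germline stem cells divide to give daughters that must express bam in order to differentiate into cysts, enter meiosis and build an oocyte. Without bam the germline accumulates as undifferentiated, dividing cells, and the series names bam RNAi as a developmental control. The gene aramis, with the symbol ais in the annotation, encodes a DEAD-box RNA helicase, and the title of the series places it in the coordination of stem cell differentiation with ribosome biogenesis. The comparison therefore asked how the mRNA of an ovary with germline aramis RNAi differs from that of this developmental control.

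The 4 libraries held between 6727797 and 13927813 counts, and 9745 of 17023 counted genes passed the filter on low counts. Levels are given as CPM, read counts divided by a library size scaled by TMM, a normalization that equalizes the bulk of the genes. Log2 CPM correlated across genes at r = 0.97 within each genotype, where genes are not independent replicates. The bam RNAi libraries stood apart from each other in 3 abundant groups. Summed over the measured genes, cytosolic ribosomal proteins stood at 134000 CPM in replicate 1 and 241900 CPM in replicate 2, oxidative phosphorylation genes at 14910 and 23600 CPM, and eggshell genes at 614 and 3570 CPM.

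Markers of the cell types in the ovary were examined first. All 8 germline markers that could be matched were detected in all 4 libraries, and their summed level was 278 and 286 CPM in the aramis RNAi libraries against 1576 and 1038 CPM in the bam RNAi libraries. Of these 8, 7 were called lower in aramis RNAi, nos, bgcn, ovo, otu, piwi, aub and zpg, and bam itself was not called. The 9 plasmatocyte markers summed to 5279 and 4924 CPM against 1823 and 1745 CPM, each of the 9 was higher in both aramis RNAi libraries than in both bam RNAi libraries, and 2 of them were called. The 8 sheath muscle markers summed to 42340 and 39930 CPM against 13020 and 23090 CPM, again with both aramis RNAi libraries above both bam RNAi libraries for each of the 8. Over all genes kept, 33.1% had that order, 0.944% were called higher and 2.44% were called lower. The markers of escort, cap and terminal filament cells summed to 1185 and 1282 CPM against 924 and 795 CPM. Most of that was fax, at 1032 and 1154 against 714 and 628 CPM. Of the 9 markers 3 had both aramis RNAi libraries above and 3 below both bam RNAi libraries. Follicle cell markers summed to 1187 and 1158 CPM against 1197 and 890 CPM, mostly from Fas3, at 845 and 827 against 654 and 486 CPM. Of the 5 kept, 1 was separated in the higher and 2 in the lower direction, with a median log2 fold change of -0.52. In whole ovaries fewer cells of a type and less RNA per cell cannot be told apart, and a larger share of somatic RNA cannot be told apart from a smaller share of germline RNA. Among cell types from outside the ovary proper, crystal cell markers summed to 436 and 404 CPM in aramis RNAi against 26.5 and 18.2 CPM in bam RNAi with PPO2 called higher, and fat body markers to 551 and 497 CPM against 141 and 125 CPM with Lsp2 called higher. Markers of spermatheca and oviduct summed to 126 and 11.4 CPM against 12.4 and 4.0 CPM, those of oenocytes to 339.8 and 498 CPM against 133 and 402 CPM, those of neurons to 43.8 and 44.4 CPM against 50.4 and 37.3 CPM, and those of Malpighian tubules to at most 8.97 CPM in any library, all without a call. Testis markers summed to at most 23.2 CPM in any library with dj and Mst84Da at 0 in all 4, accessory gland markers to at most 0.400 CPM, and midgut markers to 182 and 112 CPM in aramis RNAi against 5.77 and 79.2 CPM in bam RNAi. A wider list of 8 kept Malpighian tubule genes had a median log2 fold change of -0.24. Of these, 3 were separated in the higher and 3 in the lower direction. It held the abundant Alp4, at 6525 and 6279 against 1957 and 2518 CPM, and NKCC, at 75.9 and 74.1 against 24.9 and 23.8 CPM. None of the 8 was called by edgeR, and 2 were called higher by DESeq2. The part of these cells in the results below was not tested.

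**Figure D1:**
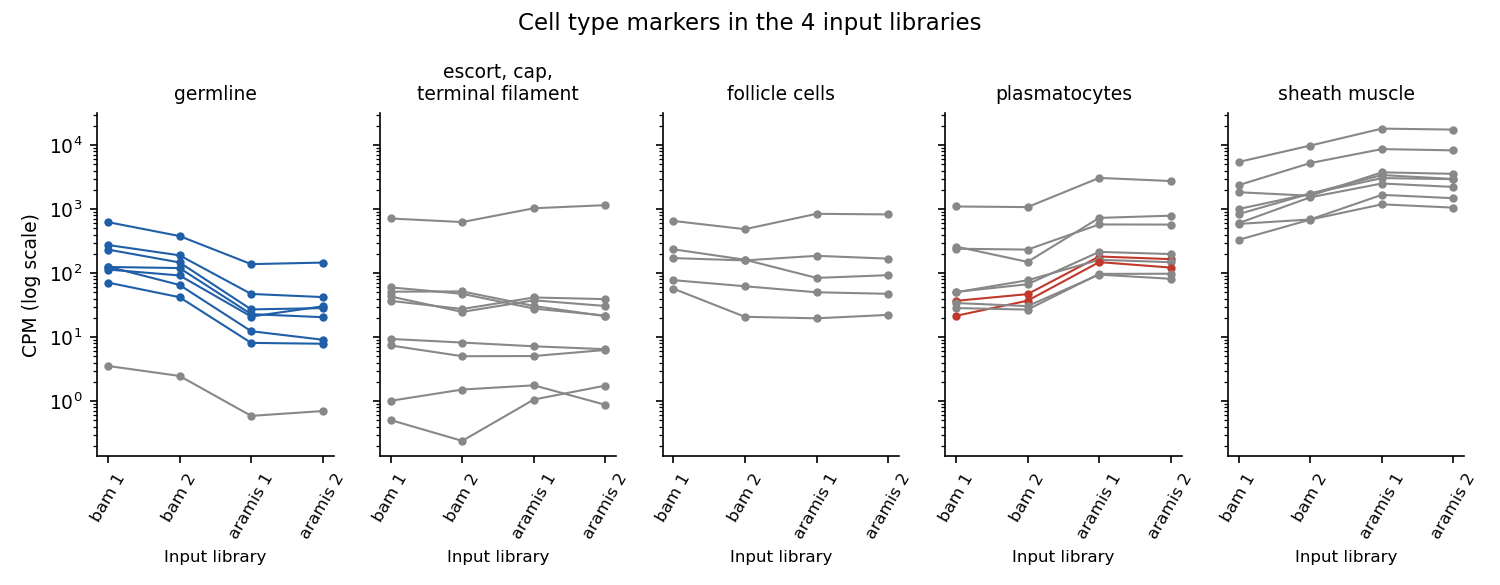
Level in CPM (log scale) of each kept marker of germline, escort, cap and terminal filament, follicle, plasmatocyte and sheath muscle cells, by input library, with 1 line per gene and 1 panel per set. Blue lines are genes called lower in aramis RNAi, red lines genes called higher and grey lines genes not called. The 7 called germline markers lie lower in the aramis RNAi than in the bam RNAi libraries, 2 plasmatocyte markers were called higher, and the muscle, follicle and escort panels hold no called gene.

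The targeted genes were examined next. The mRNA of ais stood at 8.50 and 11.2 CPM in the aramis RNAi libraries and at 28.7 and 20.7 CPM in the bam RNAi libraries. The groups did not overlap, and the log2 fold change was -1.33 ± 0.41 (SE, n = 2 per group). It did not pass the test across all genes (edgeR adjusted p = 0.0909). The 8 matched germline markers had a median log2 fold change of -2.43. A lower ais level by itself therefore does not check the aramis RNAi label. The bam mRNA was near the floor in the aramis RNAi libraries, at 0.590 and 0.702 CPM, and stood at 3.55 and 2.48 CPM in the libraries labelled bam RNAi, a log2 fold change of -2.21 ± 1.08 (adjusted p = 0.254). The targeted gene was therefore lower in the other genotype than in the one named for it, and the comparison by itself does not check the bam RNAi label. In the UAS-tkv input bam stood at 8.21 and 8.23 CPM, above both bam RNAi libraries. The mRNA of nos, whose regulatory sequence drives the GAL4, was called lower in aramis RNAi, at 22.9 and 20.5 CPM against 125 and 120 CPM (log2 fold change -2.49 ± 0.50, adjusted p = 0.0228). Dcr-2, present as a transgene in both genotypes, stood at 199 and 213 CPM against 694 and 288 CPM, and the BMP receptor tkv at 107 and 105 CPM against 202 and 135 CPM, and neither was called.

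Across all 9745 genes kept, 92 were called higher and 238 lower in aramis RNAi at an adjusted p under 0.05, which is 0.944% and 2.44% of the genes tested. All 330 called genes had both aramis RNAi libraries beyond both bam RNAi libraries, whereas that separation was common among genes in general, at 33.1% of genes in the higher and 34.8% in the lower direction. The called genes that were lower had a median log2 fold change of -1.90 and those that were higher one of 1.47, beside -0.03 over all genes kept. With the fold threshold of the study, over 4-fold, added to these edgeR calls, 23 genes were higher and 104 lower. The study applied that threshold to DESeq2 fits. Here DESeq2 gave 93 higher and 206 lower over 4-fold on 12 libraries, and 225 and 291 on the 4 input libraries. The fit on the 4 input libraries alone, with a smaller estimated spread and 2 residual degrees of freedom, called 893 genes higher (9.16%) and 995 lower (10.2%).

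**Figure D2:**
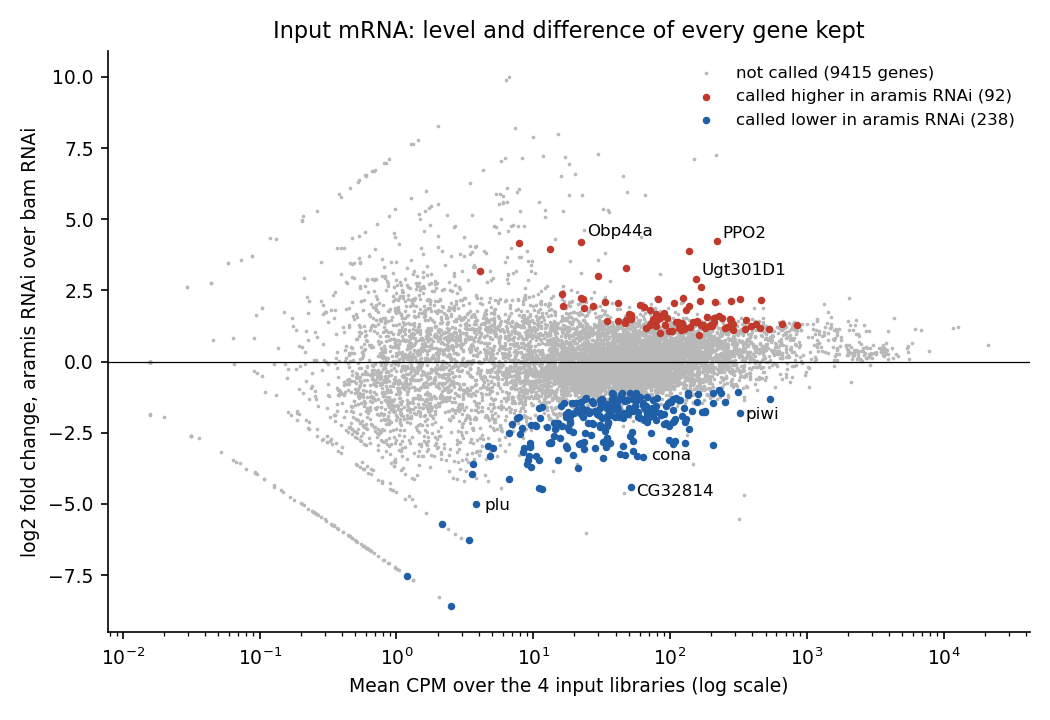
Log2 fold change of aramis RNAi over bam RNAi input against the mean CPM of the 4 libraries (log scale), 1 point per gene kept. Red points are the 92 genes called higher and blue points the 238 called lower, and the diagonal rows at the left edge are genes with 0 counts in one group.

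The calls depended on single libraries. Without aramis RNAi replicate 1, the fit called 1 gene higher and 0 lower by edgeR (1123 genes at an unadjusted p under 0.05), and without aramis RNAi replicate 2 it called 2 and 4. Without bam RNAi replicate 1 the counts were 3 and 57, and without bam RNAi replicate 2 they were 38 and 223. Each of these fits leaves a genotype with 1 library, whose spread is then assumed to equal that of the other groups. The sign of all 330 called genes was the same in all 4 of these fits. That was largely fixed beforehand, since both libraries of one genotype lay beyond both of the other for each gene. Many of the 330 genes lost the call in every one of these fits. Ugt301D1 was the only gene called in all 4, and c(3)G, PPO2, cona, sunn and CG32814 were called in 3 of the 4.

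Among called genes with a mean of at least 10 CPM over the 4 libraries, the 12 that fell the most included regulators of the egg and of meiosis. Called genes of lower level lie outside this ranking, such as plu at a log2 fold change of -5.01 and cac at -4.13. The uncharacterized gene CG32814 on the X chromosome stood at 4.84 and 4.39 CPM in aramis RNAi and at 107 and 90.6 CPM in bam RNAi, a log2 fold change of -4.41 ± 0.41 (adjusted p = 0.000600). The synaptonemal complex component cona, on 3R, stood at 10.03 and 12.6 CPM against 112 and 119 CPM, a log2 fold change of -3.35 ± 0.30 (adjusted p = 0.000600). In both genes the 2 libraries of a genotype lay close together and far from the other genotype. gnu, which activates the PNG kinase at egg activation, stood at 6.37 and 4.74 CPM against 59.6 and 58.4 CPM (log2 fold change -3.40 ± 0.50, adjusted p = 0.00602). Drep2, of the family of DNA fragmentation factor-related proteins, stood at 10.6 and 10.2 CPM against 129 and 78.8 CPM (log2 fold change -3.32 ± 0.44, adjusted p = 0.00465). Here bam RNAi replicate 1 was the higher of its pair, and the aramis RNAi libraries were nearly alike. The metabotropic glutamate receptor gene mGluR, on chromosome 4, had the largest difference of the 12 at a log2 fold change of -4.47 ± 1.00 (adjusted p = 0.0379), from 0.944 and 1.05 CPM against 25.9 and 18.7 CPM. The others were the germline linker histone BigH1, the maternal gamma-tubulin gammaTub37C, the cohesion factor sunn, and CG11382, CG42404, CG14868 and CG9926, with log2 fold changes from -4.46 to -3.27.

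The 12 that rose the most by the same rule were of a different kind. PPO2, a prophenoloxidase that crystal cells carry for melanization, stood at 434 and 403 CPM in aramis RNAi against 26.4 and 17.9 CPM in bam RNAi, a log2 fold change of 4.24 ± 0.54 (adjusted p = 0.00395). Its adjusted p reached 0.0523 when a library was left out. Ugt301D1, of the UDP-glycosyltransferase family that conjugates small lipophilic molecules, stood at 278 and 268 CPM against 35.9 and 37.9 CPM, 7.38-fold higher, with a log2 fold change of 2.88 ± 0.26 (adjusted p = 0.000600) and an adjusted p of at most 0.0315 with any 1 library left out. It lies on 2L. Obp44a and Obp57a, members of the odorant-binding protein family of small secreted carriers, stood at 31.3 and 53.7 against 1.90 and 2.72 CPM and at 83.6 and 89.1 against 11.4 and 6.32 CPM, log2 fold changes of 4.19 ± 0.66 (adjusted p = 0.00790) and 3.28 ± 0.47 (adjusted p = 0.00560). Obp44a lies opposite Pabp2 on the other strand, whose log2 fold change was -0.55. Lsp2, a larval serum protein of the fat body, stood at 302 and 280 against 39.9 and 55.2 CPM, and Sodh1, a sorbitol dehydrogenase, at 60.9 and 45.5 against 7.42 and 5.92 CPM. None of these pairs overlapped. The other 6 were CG34434, CG9119, jtb, the angiotensin-converting enzyme relative Ance-5, Glt, a glutactin of the basement membrane, and the identifier FBgn0261362, which carried no name in the annotation used, with log2 fold changes from 2.21 to 3.96.

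**Figure D3:**
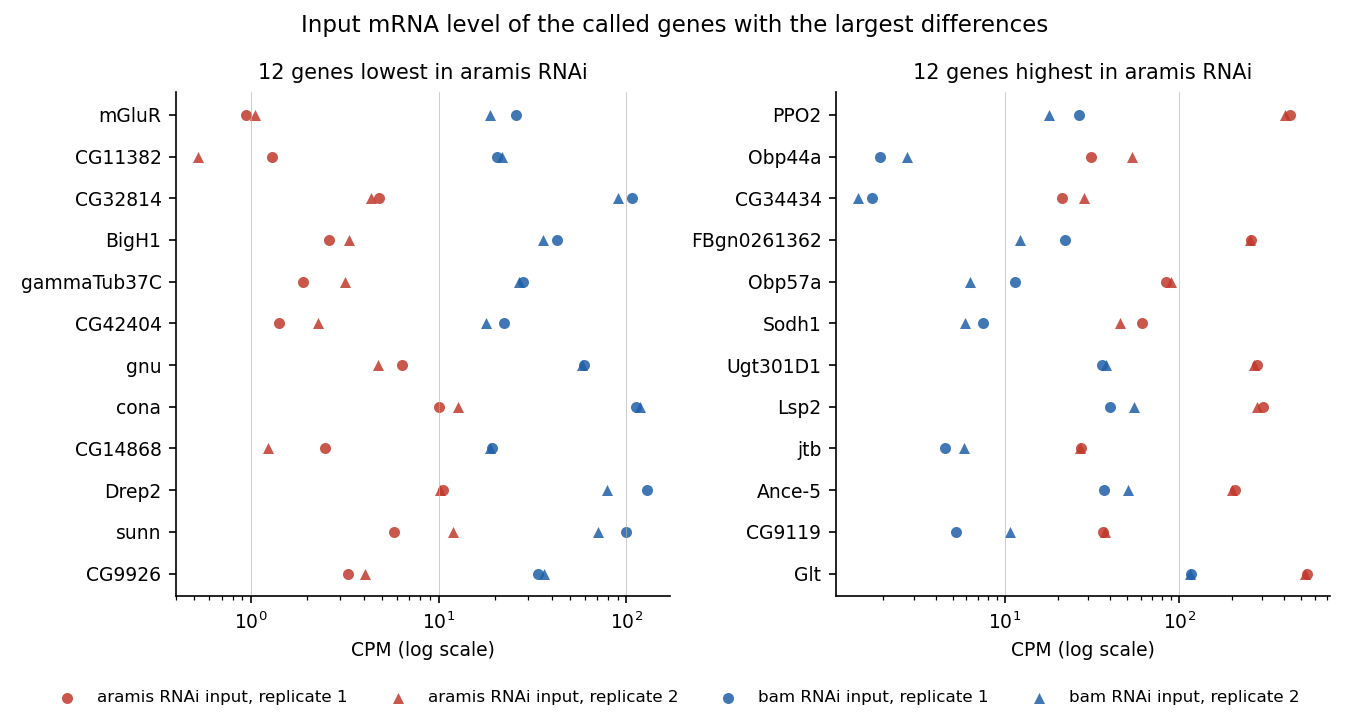
CPM (log scale) in each of the 4 input libraries of the 12 called genes with the most negative and the 12 with the most positive log2 fold change among genes with a mean of at least 10 CPM. Red symbols are aramis RNAi and blue symbols bam RNAi, with circles for replicate 1 and triangles for replicate 2. For every gene drawn the red and the blue symbols do not overlap.

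Of all lists examined, the DNA replication list held the most genes called lower in aramis RNAi. Of 43 DNA replication genes kept, 20 were called lower and 0 higher by edgeR, with a median log2 fold change of -1.41 beside -0.03 for all genes, and in the higher direction 0 passed an unadjusted p under 0.05 and 0 were called by DESeq2. In 39 of the 43 both aramis RNAi libraries lay below both bam RNAi libraries. Over all genes kept, 34.8% lay this way and 2.44% were called lower. The called members came from several steps of copying DNA. The origin recognition subunits Orc2 and Orc6 were called, as were Mcm2, Mcm5, Mcm6, Mcm7 and dpa of the replicative helicase and the GINS subunit Sld5. PolA1, Prim1 and Prim2 of the primase complex, the sliding clamp PCNA, its loader subunits RfC3 and RfC4, and Fen1 and DNAlig1, which finish lagging strands, were called too. The remaining called members, RnrL, RnrS, dUTPase and Ts, make or guard deoxynucleotides. RnrL, the large subunit of ribonucleotide reductase, stood at 32.7 and 32.5 CPM against 181 and 115.3 CPM, a log2 fold change of -2.18 ± 0.31 (adjusted p = 0.00573). Orc6 stood at 3.66 and 5.44 against 19.7 and 16.1 CPM, -1.98 ± 0.45 on the log2 scale (adjusted p = 0.0390), and PolA1 at 21.6 and 15.4 against 90.0 and 48.7 CPM, -1.90 ± 0.43 (adjusted p = 0.0392). Other replication enzymes were not called, with log2 fold changes of -1.68 for PolE1, -1.94 for PolE2 and -1.56 for PolD1 of the replicative polymerases, -1.22 and -1.21 for the helicase loaders Cdc6 and dup, -0.86 for Cdc45 and -0.85 for RPA1. The transcription factors that drive S phase showed small differences that were not called, with log2 fold changes of -0.23 for E2f1, -0.21 for E2f2 and -0.40 for Dp, while CycE, not called either, had -1.93 (adjusted p = 0.108). The number of replication genes called lower was 0, 0, 2 and 14 without aramis RNAi replicate 1, aramis RNAi replicate 2, bam RNAi replicate 1 and bam RNAi replicate 2.

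Mitosis genes fell alongside them. Of 46 genes for chromosome segregation and mitotic control, 15 were called lower and 0 higher, with a median log2 fold change of -1.23, and of 54 genes for spindle, centrosome and cytokinesis 16 were called lower and 0 higher, with a median of -1.16. In the higher direction neither list had a member at an unadjusted p under 0.05 or called by DESeq2. Over all genes kept, edgeR called 2.44% lower and 0.944% higher. fzy, the Cdc20 activator of the anaphase-promoting complex, stood at 28.3 and 32.6 CPM against 141 and 112 CPM (log2 fold change -2.05 ± 0.29, adjusted p = 0.00567). The condensin subunit SMC2 stood at 24.5 and 24.04 against 116 and 70.5 CPM (-1.94 ± 0.32, adjusted p = 0.00947). In both, each bam RNAi library lay well above each aramis RNAi library. The called set also held the mitotic kinases Cdk1, gwl, polo, aurA and aurB, the checkpoint proteins BubR1, mad2 and rod, the kinetochore subunits Spc25, Nnf1a, Ndc80 and Nuf2, and the second condensin ATPase glu. On the spindle side pav, a kinesin needed for cytokinesis, stood at 38.1 and 47.6 against 224 and 126 CPM (-2.03 ± 0.32, adjusted p = 0.00837), and msd1, of the augmin complex that nucleates spindle microtubules, at 7.20 and 7.20 against 24.9 and 30.7 CPM (-1.94 ± 0.34, adjusted p = 0.0125). The augmin subunit dgt3, the centriole genes ana3, Sas-4 and spd-2, the kinesins cmet, Klp61F and sub, the midzone gene feo, sti and the chromosomal passenger borr were called with them. The members without a call ranged from -2.15 for thr to 0.74 for fzr, the Cdh1 activator of the anaphase-promoting complex, in the segregation list, and from -1.89 for the augmin subunit dgt5 to 0.61 for the ESCRT gene shrb in the spindle list. Without each library in turn, in the order above, the spindle list kept 0, 0, 3 and 14 lower calls and the segregation list 0, 0, 2 and 13.

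**Figure D4:**
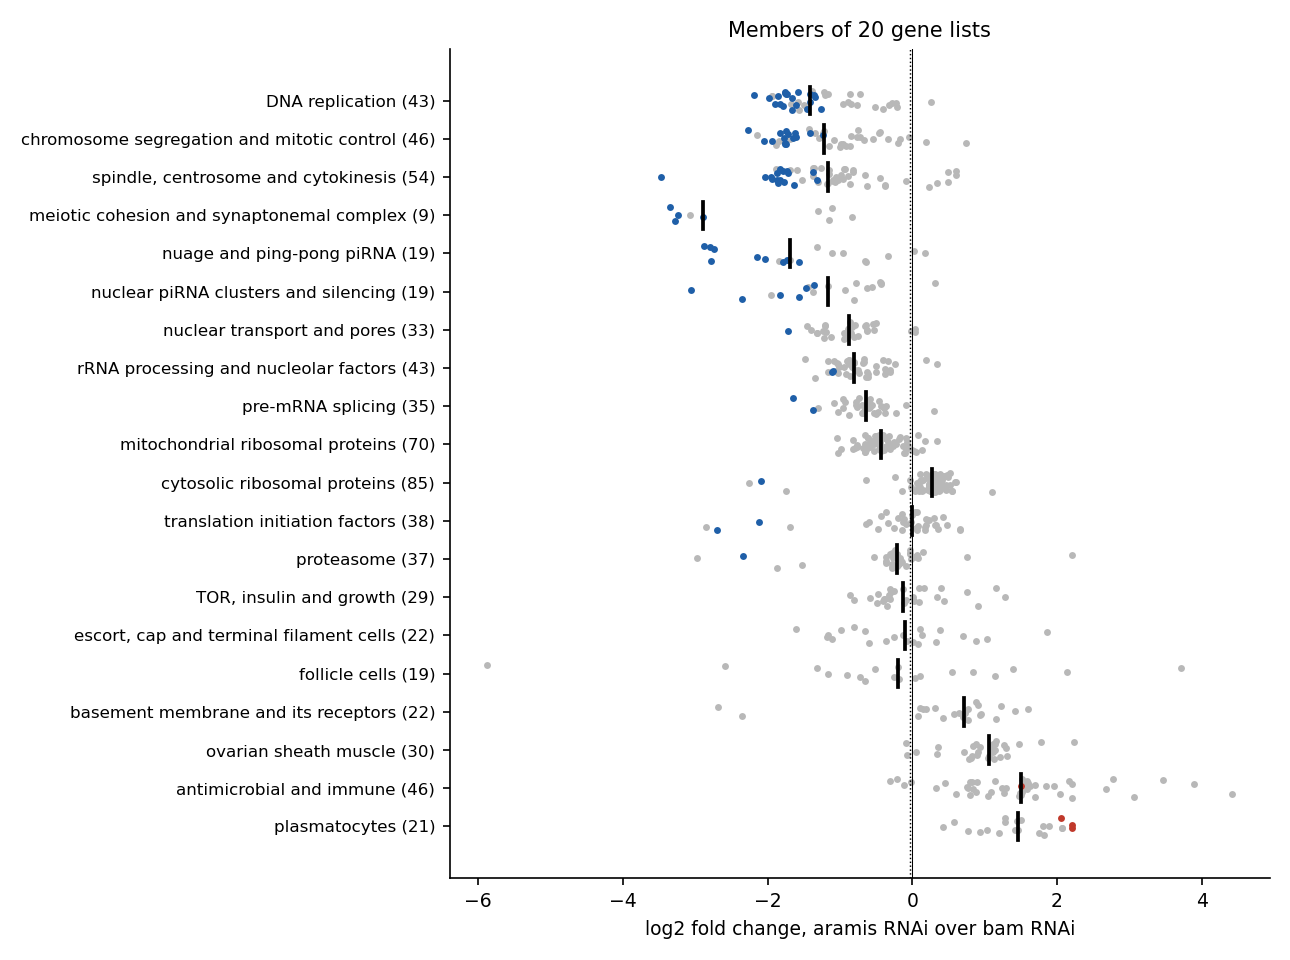
Log2 fold change of aramis RNAi over bam RNAi for every kept member of 20 gene lists, with the number kept in parentheses. Blue points were called lower, red points higher and grey points not called, each black bar is the list's median, and the dotted line is the median of all genes kept at -0.03. The 3 cell cycle lists and the germline lists lie to the left, core ribosomal proteins and initiation factors near 0 with a few members far to the left, and muscle and blood cell lists to the right.

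Meiosis genes stood among the largest differences. As a background, 2.44% of all genes kept were called lower, and 34.8% had both aramis RNAi libraries below both bam RNAi libraries. Of 9 genes of meiotic cohesion and the synaptonemal complex, the protein ladder that holds paired chromosomes together, 4 were called lower, cona, sunn, ord and c(3)G, and all 9 had both aramis RNAi libraries below both bam RNAi libraries, with a median log2 fold change of -2.89. The cohesion protein ord stood at 9.44 and 7.20 CPM against 100.3 and 56.8 CPM (log2 fold change -3.23 ± 0.44, adjusted p = 0.00480), and sunn at 5.78 and 11.9 against 99.1 and 70.6 CPM (-3.27 ± 0.41, adjusted p = 0.00338). c(3)G, the transverse filament, stood at 23.6 and 26.7 against 211 and 161 CPM (-2.89 ± 0.27, adjusted p = 0.000600). No library of one genotype reached the other in any of the 3. General cohesin differed less, with log2 fold changes of -0.84 for SMC1 and -1.10 for SMC3, neither called. Among 21 genes for meiotic breaks and crossovers 3 were called lower and 0 higher, with 12 and 0 at an unadjusted p under 0.05. They were nenya, a RING protein of crossover formation, lok, the Chk2 checkpoint kinase, and rec, an MCM-like protein, and lok stood at 48.6 and 52.8 against 199 and 186 CPM (-1.92 ± 0.25, adjusted p = 0.00395). Without aramis RNAi replicate 1, aramis RNAi replicate 2, bam RNAi replicate 1 and bam RNAi replicate 2, the cohesion list held 0, 3, 4 and 5 lower calls and the break list 0, 0, 1 and 1.

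The piRNA pathway silences transposons in the germline with short RNAs, which are amplified in the nuage around the nucleus. Of its 19 nuage and ping-pong genes 9 were called lower and 0 higher, with a median log2 fold change of -1.69. The slicers AGO3 and aub stood at 25.02 and 36.5 against 254 and 196 CPM (-2.87 ± 0.43, adjusted p = 0.00645) and at 27.2 and 28.4 against 233 and 147 CPM (-2.78 ± 0.34, adjusted p = 0.00338). tej, a Tudor-domain protein of the nuage, stood at 10.98 and 15.97 against 107 and 80.4 CPM (-2.80 ± 0.39, adjusted p = 0.00499). The other called members were krimp, qin, mael, shu, spn-E and vret. The nuage components tud and papi had log2 fold changes of 0.03 and 0.18 and were not called. Of 19 genes of the nuclear branch 6 were called lower and 0 higher, with a median of -1.16. rhi and cuff, which mark and protect the transcripts of piRNA clusters, stood at 5.19 and 4.74 against 43.1 and 40.3 CPM (-3.06 ± 0.43, adjusted p = 0.00538) and at 4.60 and 4.91 against 26.3 and 22.4 CPM (-2.35 ± 0.40, adjusted p = 0.0108). piwi stood at 138 and 146 against 627 and 380 CPM (-1.82 ± 0.38, adjusted p = 0.0289). In the higher direction 0 members of either branch passed an unadjusted p under 0.05 or were called by DESeq2. The share called lower by edgeR over all genes kept was 2.44%. The nuage list kept 0, 0, 6 and 9 lower calls without each library in turn, and the nuclear list 0, 0, 1 and 8. In the short interfering and microRNA machinery 1 of 13 genes was called lower, blanks, a double-stranded RNA binding protein known from the testis, at 9.44 and 8.25 against 68.9 and 59.3 CPM (-2.85 ± 0.42, adjusted p = 0.00602), while AGO2 and r2d2 had log2 fold changes of 0.05 and -0.09.

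Regulators of germline identity and differentiation were lower in part. Of 21 genes kept 6 were called lower and 0 higher by edgeR, with a median log2 fold change of -1.04, and 12 were lower and 0 higher at an unadjusted p under 0.05. bgcn, the partner of Bam, stood at 12.4 and 9.13 against 127 and 65.4 CPM (-3.15 ± 0.44, adjusted p = 0.00547), and otu, needed for cyst formation, at 8.14 and 7.90 against 71.3 and 42.1 CPM (-2.82 ± 0.58, adjusted p = 0.0270). The remaining calls were nos, ovo, bru1 and zpg. Of all genes kept, 2.44% were called lower. The members without a call ranged from -2.21 for bam to 0.82 for egl, an adaptor of mRNA transport. The identity list kept 0, 0, 1 and 4 lower calls without each library in turn.

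Among 25 maternal and egg activation genes 6 were called lower and 0 higher, beside 2.44% of all genes called lower. Their median log2 fold change was -0.99. plu, which with gnu and png forms the kinase complex that starts embryonic cycles, was counted 1 and 2 times in the aramis RNAi libraries and 106 and 102 times in the bam RNAi libraries, a ratio of 34.8 in favour of bam RNAi with a 95% exact interval of 11.7 to 170 that covers counting error only. Its partner gnu was called as described above, whereas the kinase png had a log2 fold change of 0.32 (adjusted p = 0.847), at 6.49 and 7.02 against 5.39 and 5.44 CPM. The anaphase activator cort, the localization factor exu, the phosphatase twe and gammaTub37C were the other calls. Some oocyte mRNAs, named here after their values were seen, lay on the other side without a call. dhd, a thioredoxin of the egg, stood at 24.3 and 37.4 against 6.28 and 8.08 CPM (log2 fold change 2.1, adjusted p = 0.0992), grk at 75.4 and 62.3 against 23.4 and 37.6 CPM and osk at 9.09 and 13.0 against 5.52 and 3.68 CPM. In 26 eggshell genes the bam RNAi libraries differed from each other as given above. Their median log2 fold change was -1.83, with 15 separated in the lower and 2 in the higher direction. At an unadjusted p under 0.05 by edgeR 12 were lower and 1 higher, and DESeq2 called the same numbers. By edgeR 1 member, fs(1)M3, was called lower, at 5.08 and 5.97 against 35.7 and 13.8 CPM. Its log2 fold changes ran from -2.70 to -1.37 over the fits that left out a library. The maternal list held 0, 0, 2 and 4 lower calls in those fits, in the order above.

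Germline or maternal genes were set beside a close or distant relative. Of 25 pairs 18 had both members kept, and the member listed as germline, maternal or variant had the lower log2 fold change in 14 of the 18. It was not the lower one for CycB3 at -0.99 beside CycB at -1.22, TfIIA-S-2 at 0.31 beside TfIIA-S at -1.02, alphaTub67C at 0.98 beside alphaTub84B at 0.65, and RpS14a at 0.37 beside RpS14b at 0.27. The 7 pairs described next were chosen for holding a call, so their differences are a description. Levels are compared within a gene only, since the members differ in length. gammaTub37C had a log2 fold change of -3.47 ± 0.42 (adjusted p = 0.00338) from 1.89 and 3.16 against 28.2 and 27.0 CPM, and its somatic relative gammaTub23C one of -0.81 ± 0.27 (adjusted p = 0.110). The cluster-binding HP1 relative rhi fell by 3.06 on the log2 scale, and HP1a itself had -0.74 ± 0.24 (adjusted p = 0.103). AGO3 fell by 2.87, beside -0.46 ± 0.36 for AGO1 (adjusted p = 0.489), whose bam RNAi replicate 2 at 121 CPM lay between the aramis RNAi libraries at 117 and 125 CPM. twe, the meiotic Cdc25 phosphatase, fell by 2.28, beside -0.20 ± 0.43 for the mitotic stg (adjusted p = 0.815), and the piRNA export factor nxf2 by 1.35, beside -0.36 ± 0.25 for sbr (adjusted p = 0.412). The ribosomal protein gene RpS19b stood at 33.2 and 48.1 against 167 and 178 CPM (-2.09 ± 0.31, adjusted p = 0.00602), while RpS19a, at 4452 and 3731 against 1746 and 4091 CPM, had 0.49 ± 0.63 (adjusted p = 0.688) and overlapped between the groups. In the pair of anaphase activators both the female meiotic cort, at -3.05 ± 0.57 (adjusted p = 0.0168), and the mitotic fzy were called. The difference between the members of a pair was not tested, and how reads shared by near-identical copies were counted is not given in the sources used here.

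**Figure D5:**
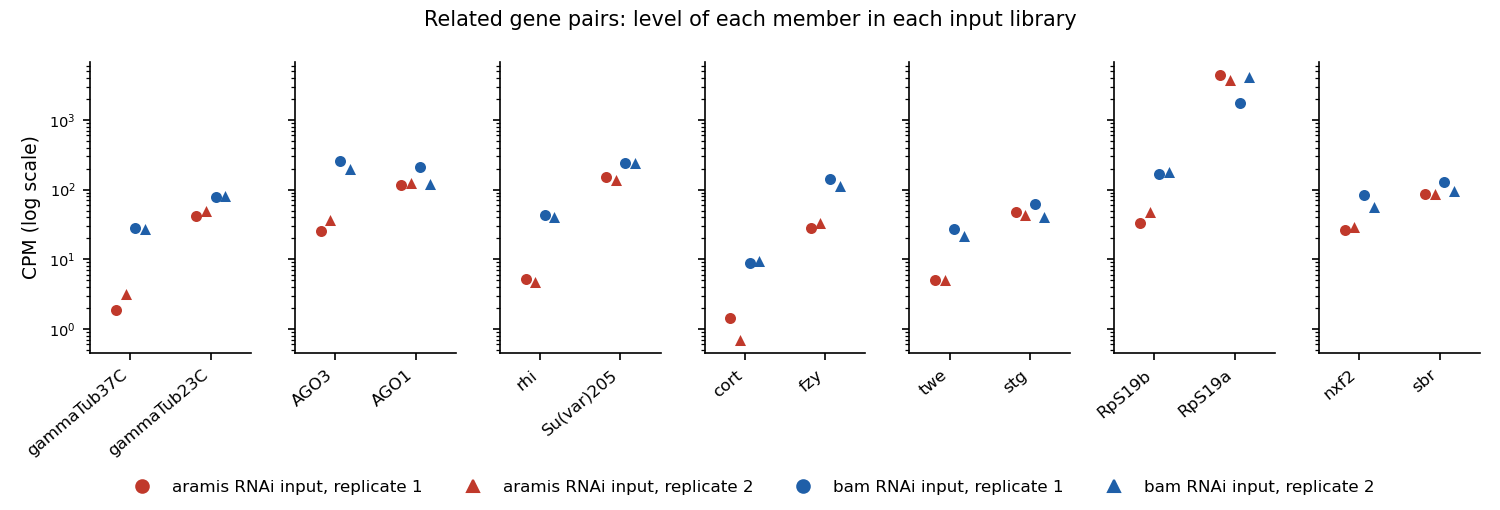
CPM (log scale) in each input library for 7 pairs of related genes, the germline, maternal or meiotic member on the left of each panel. Red symbols are aramis RNAi, blue symbols bam RNAi, circles replicate 1 and triangles replicate 2. In the left member of every panel red lies below blue without overlap, and among the right members the groups overlap for AGO1, stg and RpS19a.

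Chromatin factors differed less as a list. Of 32 genes kept 4 were called lower and 0 higher, with a median log2 fold change of -0.61, and all 32 had a negative value. Of all genes kept, 2.44% were called lower and the median was -0.03. BigH1, the embryonic and germline linker histone, stood at 2.60 and 3.33 against 42.6 and 35.9 CPM (-3.73 ± 0.51, adjusted p = 0.00480), and egg, the H3K9 methyltransferase of germ cells, at 34.5 and 33.3 against 114 and 73.0 CPM (-1.47 ± 0.30, adjusted p = 0.0283). The other calls were rhi and Caf1-55, and the list held 0, 0, 2 and 7 lower calls with each library left out in turn. The members without a call had log2 fold changes from -1.42 for the Polycomb gene esc to -0.05 for ph-d. Between them lay Psc at -0.61, Pc at -0.41 and the Trithorax gene trx at -0.35.

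The machinery of protein synthesis was divided. Core cytosolic ribosomal protein genes, 85 kept, had a median log2 fold change of 0.27 with 1 called lower, RpS19b, and 0 higher. The sign of that median rested on bam RNAi replicate 1, as the range was -0.14 to 0.82 over the fits that left out a library. Steps that precede the finished ribosome were lower in nearly all members and rarely called. Over all genes kept, 34.8% were separated in the lower direction and 2.44% were called lower. Of 43 rRNA processing and nucleolar genes 40 had both aramis RNAi libraries below both bam RNAi libraries, the median was -0.80, and 2 were called lower and 0 higher, Surf6 at 29.98 and 25.97 against 58.9 and 62.0 CPM (-1.11 ± 0.26, adjusted p = 0.0425) and the box C/D snoRNP protein nop5 at 116 and 147 against 326 and 235 CPM (-1.10 ± 0.26, adjusted p = 0.0471). Of 20 genes for RNA polymerases I and III, which transcribe rRNA and tRNA, 0 were called by edgeR (10 lower and 0 higher at an unadjusted p under 0.05, 5 lower by DESeq2), with a median of -0.70. Their lowest p-values belonged to Polr1A, the large subunit of polymerase I, at 51.1 and 60.4 against 183 and 97.0 CPM (adjusted p = 0.0514), and to TAF1B at 18.2 and 18.8 against 56.1 and 38.02 CPM (adjusted p = 0.0534). Mitochondrial ribosomal proteins, 70 kept, had a median of -0.43 with 0 called by edgeR (8 lower at an unadjusted p under 0.05, 1 by DESeq2). Nuclear pore and transport genes, 33 kept, had a median of -0.88 with 30 of 33 separated in the lower direction and 1 called, RanGAP, the GTPase activator of Ran, at 43.0 and 55.8 against 183 and 141 CPM (-1.72 ± 0.25, adjusted p = 0.00602). Splicing genes, 35 kept, had a median of -0.64 with 31 separated in the lower direction and 2 called lower, Smn, which assembles spliceosomal particles, at 25.1 and 23.3 against 73.5 and 78.0 CPM (-1.64 ± 0.29, adjusted p = 0.0141) and the Sm protein SmF (-1.38 ± 0.32, adjusted p = 0.0416).

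Further lists of basic machinery held 1 or 2 lower calls each, beside 2.44% of all genes called lower. Of 38 translation initiation factors, median log2 fold change 0.00, 2 were called lower and 0 higher. These were the cap-binding eIF4E3, at 4.49 and 3.86 against 24.6 and 29.9 CPM (-2.70 ± 0.44, adjusted p = 0.00924), and the scaffold eIF4G2, at 35.8 and 42.8 against 252 and 88.0 CPM (-2.11 ± 0.48, adjusted p = 0.0387), both described in spermatogenesis. The bam RNAi libraries of eIF4G2 lay far apart, and its log2 fold change ranged from -2.68 to -1.21 with a library left out. Of 37 proteasome genes, median -0.21, 1 was called lower and 0 higher, Rpt3R, a relative of the base subunit Rpt3, at 6.61 and 5.26 against 32.9 and 27.3 CPM (-2.33 ± 0.34, adjusted p = 0.00602). Of 70 oxidative phosphorylation genes, median 0.33, 1 was called lower and 0 higher, Cyt-c1L, a relative of cytochrome c1, at 4.25 and 2.28 against 22.97 and 24.9 CPM (-2.85 ± 0.56, adjusted p = 0.0220). Other relatives in these lists and among the ribosomal proteins lay on both sides without a call. Positive values included 0.75 for Rpt4R, 1.64 for COX7AL2, 0.58 for ATPsynbetaL and 0.55 for RpL22-like. Negative values included -2.97 for Rpt6R, -3.78 for COX7CL, -2.25 for RpS10a and -1.75 for RpS5b. The median of the oxidative phosphorylation list depended on the bam RNAi libraries and ranged from 0.00 to 0.74 with a library left out. Of 31 aminoacyl-tRNA synthetases, median -0.44, 1 was called lower and 0 higher, IleRS-m, the mitochondrial isoleucine enzyme, at 15.2 and 14.7 against 42.1 and 35.5 CPM (-1.37 ± 0.31, adjusted p = 0.0392).

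Blood cell genes were higher as a group. Hemocytes adhere to the ovary and circulate around it, plasmatocytes as phagocytes and crystal cells as the source of melanizing enzymes. All 21 plasmatocyte genes kept had both aramis RNAi libraries above both bam RNAi libraries, beside 33.1% of all genes. Their median log2 fold change was 1.46, and 3 were called higher and 0 lower, beside 0.944% of all genes called higher. The phagocytosis receptor NimC1 stood at 182 and 165 against 36.9 and 47.1 CPM (2.05 ± 0.39, edgeR adjusted p = 0.0176). NimB5 stood at 149 and 122 against 21.6 and 37.1 CPM (2.21 ± 0.51, edgeR adjusted p = 0.0416). Glt stood at 542 and 528 against 116 and 114.8 CPM (2.21 ± 0.54, edgeR adjusted p = 0.0484). Abundant plasmatocyte genes had differences of like size without a call, Hml at 730 and 790 against 261 and 150 CPM and Pxn at 3074 and 2746 against 1099 and 1076 CPM. Of 13 crystal cell and melanization genes, median 1.18, 2 were called higher and 0 lower, PPO2 and the dopachrome-converting yellow-f, at 26.3 and 26.1 against 5.33 and 8.16 CPM (1.96 ± 0.42, adjusted p = 0.0315). lz, the transcription factor that specifies crystal cells, was at 1.77 and 0.527 CPM against 0.0635 and 0.240 CPM and was not kept by the filter. With any 1 library left out 0 of the plasmatocyte genes were called, and the list's median lay between 1.4 and 1.62.

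Immune, muscle and secretory genes leaned the same way with few calls. Over all genes kept, 0.944% were called higher and 33.1% were separated in the higher direction. Of 46 antimicrobial and immune genes 1 was called higher and 0 lower, the peptidoglycan receptor PGRP-LC at 114 and 108 against 35.3 and 43.1 CPM (1.5 ± 0.31, adjusted p = 0.0285), with 33 separated in the higher direction and a median of 1.5. The muscle sheath around the ovarioles contributed 30 genes with a median of 1.06, of which 25 were separated in the higher direction and 0 called by edgeR (11 higher at an unadjusted p under 0.05, 8 by DESeq2). Prm, the paramyosin of thick filaments, stood at 1671 and 1480 against 588 and 689 CPM (adjusted p = 0.0789). The 22 basement membrane genes had a median of 0.72 with 0 called by edgeR (5 higher and 1 lower at an unadjusted p under 0.05, 3 and 1 by DESeq2). Of 15 odorant-binding protein genes kept, median 1.84, 2 were called higher and 0 lower, Obp44a and Obp57a. Of 49 glutathione transferases and other detoxification genes 1 was called higher and 0 lower, GstE6, at 94.1 and 108 against 33.4 and 48.9 CPM (1.30 ± 0.31, adjusted p = 0.0465). Fat body genes, 21 kept, had 1 higher call, Lsp2, yolk genes, 9 kept, 1 higher call, the lipoprotein receptor LpR1, at 115.2 and 95.5 against 48.0 and 34.3 CPM (1.36 ± 0.32, adjusted p = 0.0425), and reproductive tract genes, 12 kept, 1 higher call, the neprilysin Nep2 (1.23 ± 0.25, adjusted p = 0.0276). Midgut genes had the highest median of any list, 3.61 over 34 genes, with 0 called by edgeR (9 higher at an unadjusted p under 0.05, 5 by DESeq2), and the libraries of a genotype scattered. The trypsin-like Jon25Bi, one of a family of similar sequences, stood at 37.9 and 9.83 CPM in aramis RNAi against 0.761 and 0.400 CPM.

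Signalling genes held few calls, beside 0.944% of all genes called higher and 2.44% called lower. Of 31 genes of the p53 response, checkpoints and cell death 1 was called higher and 1 lower, egr, the fly TNF that activates JNK signalling, at 142 and 110 against 40.1 and 46.7 CPM (1.54 ± 0.27, adjusted p = 0.0134), and lok. In the JAK-STAT list of 9 genes et, a short receptor that dampens the pathway, was called higher, at 41.8 and 32.1 against 9.07 and 11.1 CPM (1.87 ± 0.46, adjusted p = 0.0486). Of 24 EGFR and Notch genes 2 were called lower and 0 higher. The Notch target E(spl)m3-HLH stood at 5.55 and 6.67 against 54.5 and 46.4 CPM (-3.05 ± 0.43, adjusted p = 0.00538), and stet, the germline rhomboid protease that releases EGF ligands, at 8.03 and 13.7 against 50.5 and 51.8 CPM (-2.24 ± 0.40, adjusted p = 0.0141). In the growth list of 29 genes around TOR and insulin 0 were called by edgeR (2 higher and 0 lower at an unadjusted p under 0.05, the same counts by DESeq2), with a median of -0.13. The lowest p-values there belonged to Sesn, a stress-induced inhibitor of TOR, at 236 and 234 against 99.9 and 92.5 CPM (1.29 ± 0.39, adjusted p = 0.0851), and Thor, the eIF4E-binding protein, at 846 and 897 against 245 and 533 CPM (1.16 ± 0.43, adjusted p = 0.147). The bam RNAi libraries of Thor differed widely from each other, but both lay below both aramis RNAi libraries. BMP genes (18 kept, median -0.10) and Hedgehog and Wnt genes (22 kept, median -0.14) had 0 calls by edgeR or DESeq2, with 1 higher and 1 lower and 0 higher and 4 lower at an unadjusted p under 0.05.

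The somatic cells that form the niche and surround the germline showed no call. The 22 escort, cap and terminal filament genes had a median log2 fold change of -0.10 and the 19 follicle cell genes one of -0.20, with 0 called by edgeR (2 higher and 6 lower, and 4 higher and 4 lower, at an unadjusted p under 0.05, and 1 and 2, and 2 and 4, by DESeq2). tj, a Maf factor of both cell types, stood at 84.3 and 93.0 against 236 and 162 CPM (-1.17 ± 0.30, adjusted p = 0.0558), and the lamin gene LamC at 230 and 185 against 97.0 and 105 CPM (1.03 ± 0.34, adjusted p = 0.103). Neither gene overlapped between the groups. Heat shock genes (23 kept, median 0.04) and ecdysone genes (21 kept, median -0.29) also had 0 calls by edgeR, with 2 higher and 1 lower and 1 higher and 3 lower at an unadjusted p under 0.05, and 1 and 2 and 0 and 1 by DESeq2. Of 13 neuronal genes 1 was called lower, the calcium channel cac, at 0.708 and 0.702 against 16.6 and 8.48 CPM (-4.13 ± 1.00, adjusted p = 0.0486).

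Long non-coding RNAs were mostly too rare to test, as 265 of 2171 were kept. Their median log2 fold change was -0.53. Of the 265, 114 were separated in the lower direction (43.0%) and 45 in the higher (17.0%), beside 34.8% and 33.1% of all genes. Among the 265, 2 were called lower and 1 higher (0.755% and 0.377%), below the 2.44% and 0.944% of all genes. lncRNA:CR43857 stood at 10.7 and 10.2 against 54.5 and 59.2 CPM (-2.44 ± 0.29, adjusted p = 0.00338), lncRNA:CR43651 at 8.62 and 6.49 against 42.8 and 47.2 CPM (-2.57 ± 0.50, adjusted p = 0.0202), and lncRNA:CR43264, the one that rose, at 206 and 216.9 against 69.6 and 92.6 CPM (1.38 ± 0.30, adjusted p = 0.0352).

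Some features of the called genes are given here as description. The mean level comes from the same counts as the calls, so it is not independent of them. Of the annotated genes called lower 9.75% lay on the X chromosome, beside 17.3% of all genes kept and 15.6% of those called higher, and of the genes called higher 33.3% lay on 2R, beside 20.4% of all. The median mean level was 36.1 CPM for genes called lower and 123 CPM for genes called higher, beside 31.3 CPM for all. The median exon length was 1836 bases for the lower and 2476 bases for the higher, beside 2000 bases. In the annotation 41.5% of the lower and 32.2% of the higher genes overlap another kept gene, beside 37.8% of all, and none overlaps a gene called in the same direction. Adjacent kept genes called in the same direction included rhi with Oxp, PCNA with plu, ord with CG13540, nxf2 with Smn and RpS19b with CG13599, each pair called lower.

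The UAS-tkv input, which shares no hairpin with the other genotypes, was set beside some of these genes. Among those lower in aramis RNAi, RpS19b stood at 218.2 and 179.8 CPM in UAS-tkv, ord at 77.9 and 74.8 CPM, PolA1 at 81.4 and 73.3 CPM, and BigH1 at 108 and 67.2 CPM. RpS19b and ord lay near their bam RNAi levels, and both BigH1 libraries lay above them. Among those higher in aramis RNAi, PPO2 stood at 20.2 and 25.8 CPM and Ugt301D1 at 20.2 and 28.3 CPM in UAS-tkv. NimC1 stood at 3.22 and 5.33 CPM and Glt at 34.7 and 91.1 CPM, below both bam RNAi libraries. The polysome libraries of the 2 RNAi genotypes, from the same lysates, held PPO2 at 377 and 405 CPM in aramis RNAi against 70.9 and 19.7 CPM in bam RNAi, Ugt301D1 at 273 and 282 against 43.8 and 38.7 CPM, and ord at 13.6 and 19.1 against 54.4 and 120 CPM.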

How the data were processed

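Ovary RNA of 3 genotypes was sequenced as input and polysome fractions in duplicate, and each deposited file holds raw counts per FlyBase gene from the authors. Per the labels, reads were aligned with HISAT2 2.1.0 to dm6 and counted with featureCounts 1.4.6, while the strand setting and the handling of shared reads are not given in the sources used here. The paper describes another aligner for its processing. Libraries were grouped by genotype and fraction as labelled. Counts were analysed with edgeR 4.0.16 in R 4.3.3 by the quasi-likelihood test over all 12 libraries and 6 groups, with TMM, filterByExpr (9745 genes kept, 7278 removed) and Benjamini-Hochberg adjustment over all genes kept. Genes were called at an adjusted p under 0.05. Standard errors are the log2 fold change divided by the square root of F. CPM were computed from TMM-scaled library sizes. Of 17023 identifiers, 16647 matched the Ensembl annotation of the same assembly, and 376 are named by identifier alone. Lists (54) were matched by symbol or synonym, with 46 of 1150 entries unmatched.

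Named genes were the targeted and driver genes with RpS19b and ord, the 12 called genes with the largest change in each direction with a mean of at least 10 CPM and no overlap between groups, up to 3 called members per list and direction or else the 2 with the lowest p, and related pairs with a call. Genes named beyond this rule were picked after their values were seen. Members and lists were chosen with earlier results of these data known. The alternatives were other library sets, DESeq2 1.42.0, RLE and upper-quartile scaling, TMM without ribosomal protein genes, other filters, the study's 4-fold threshold, a replicate block and each library left out. The fit was tested on simulated counts. Promoter motifs were not searched, as no sequence was used here. Ratios of low counts carry 95% Clopper-Pearson intervals. Figures were drawn with matplotlib 3.10.9.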

Additional observations from a re-analysis of the deposited data

How the results depend on the processing

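As reported, 330 genes were called, 92 higher and 238 lower. The fit on the 6 input libraries called 1583 (572 higher and 1011 lower), with the 4 libraries compared 1888 (893 and 995), with DESeq2 on 12 libraries 1231 (526 and 705) and with DESeq2 on 4 libraries 2481 (1346 and 1135). All 330 genes were among the calls of each of these 4 fits. Without a filter 1151 genes were called (604 and 547), with at least 10 CPM in 2 libraries 500 (140 and 360), and with the 4-fold threshold 127 (23 and 104). RLE, upper-quartile scaling and TMM without ribosomal protein genes gave 386, 386 and 382 calls, of which 317, 306 and 321 were among the 330. With 1 library left out the calls ranged from 1 to 261, from 1 to 38 higher and from 0 to 223 lower.

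With a replicate block 443 genes were called, 173 higher and 270 lower, and of the 122 named genes 1 lost and 1 gained a call. Same-numbered libraries of the 2 genotypes deviated with a correlation of -0.02 across genes. With 2 libraries per genotype this value cannot decide whether same-numbered libraries share a batch.

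Of the 77 named genes that were called, 1 lost its call under RLE, 2 under upper-quartile scaling and 1 under TMM without ribosomal protein genes, and 76, 72, 48 and 29 lost it without aramis RNAi replicate 1, aramis RNAi replicate 2, bam RNAi replicate 1 and bam RNAi replicate 2. None of these 77 genes changed sign under any alternative. For the fits that left out a library this was largely fixed beforehand, since the genotypes did not overlap in any called gene. Of 53 list medians, 31 moved by less than the spread between replicates without bam RNAi replicate 1 and 34 without bam RNAi replicate 2.

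With 2 libraries per genotype and 6 residual degrees of freedom the median standard error was 0.43 on the log2 scale, the smallest absolute log2 fold change called was 0.92, and a gene without a call is not shown to be alike. Whole ovaries mix germline and soma, and the share of each cannot be told apart from a change per cell.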

Other observations

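Gene groups outside the lists held further calls. They were put together after the values were seen, so their counts are descriptions and carry no test. Of all genes kept, 2.44% were called lower. Genes that repair crosslinked DNA through the Fanconi pathway were called lower in aramis RNAi in 3 of 4 cases. FANCI and Fancd2, which form the clamp at a stalled fork, stood at 10.4 and 15.6 against 75.9 and 39.6 CPM (log2 fold change -2.16 ± 0.41, edgeR adjusted p = 0.0176) and at 12.5 and 22.8 against 84.5 and 49.7 CPM (-1.93 ± 0.37, adjusted p = 0.0183). Fancl, their ubiquitin ligase, was the third call, and the helicase Fancm, at 19.1 and 23.7 against 31.3 and 20.7 CPM, overlapped between the groups. Of 5 genes of the SMC5/6 complex, which acts on recombination intermediates, SMC5, SMC6 and qjt were called lower, while MAGE had -0.78 and cerv 0.23. The telomere-capping proteins cav and HipHop were called lower as well, at 9.68 and 10 against 42.0 and 45.3 CPM (-2.15 ± 0.36, adjusted p = 0.0108) and at 36.4 and 27.0 against 108 and 128 CPM (-1.90 ± 0.31, adjusted p = 0.00897). Aos1 and Uba2, the 2 subunits of the SUMO-activating enzyme, were called lower with log2 fold changes of -1.09 and -1.01, and the conjugating enzyme lwr had -0.26 without a call.

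On the higher side, genes of epithelial and hemolymph proteins recurred. Over all genes kept, 33.1% were separated in the higher direction and 0.944% were called higher. All 11 septate junction genes measured, which seal epithelia, had both aramis RNAi libraries above both bam RNAi libraries, with a median log2 fold change of 1.11, and pck and Ssk were called, pck at 249 and 229 against 87.6 and 107 CPM (1.29 ± 0.24, adjusted p = 0.0164). Of 10 serpins, protease inhibitors of the hemolymph, 8 were separated in the higher direction and Spn42Da and Spn43Ab were called, while Spn42De and Spn43Aa had negative values. All 6 imaginal disc growth factors, secreted chitinase relatives, were separated in the higher direction and Idgf3 was called, at 216 and 225 against 52.8 and 61.6 CPM (1.95 ± 0.47, adjusted p = 0.0471). The peroxisomal oxidation enzymes Mfe2 and Acox3 were called higher, with log2 fold changes of 1.11 and 1.38, and CRAT and Pex5 had 0.05 and 0.15. Each adjusted p of these called genes exceeded 0.05 in at least 1 fit that left out a library.

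Among the called genes 2 had no count in either aramis RNAi library. CG11052 was counted 44 and 25 times and CG32447 121 and 29 times in the bam RNAi libraries. With a floor of 3 counts assumed over both aramis RNAi libraries, the ratio was 11.5 for CG11052 and 25.1 for CG32447 in favour of bam RNAi. The lower limits of their 95% exact intervals were 9.13 and 20.1. CG34353 and Task7 had 1 count in aramis RNAi, with ratios of 63.7 (95% exact interval 11.2 to 2535) and 92.3 (16.4 to 3664) in favour of bam RNAi, which cover counting error only.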
